A study of Mus musculus with 14 samples.

Results

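The muscularis of the knockout colon was compared with that of the knockout jejunum, to see which differences between these stretches of gut were present in mice labelled as Carmn knockouts, and which of those genes also differed between colon and jejunum of wild-type mice. The comparison used 6 of the 14 samples of the series, 3 libraries of knockout colon (tags m1, t4 and t6) and 3 of knockout jejunum (m1, t1 and t4). They were chosen by their genotype and tissue labels. The series measured RNA from the hand-separated muscle coat of the gut of C57BL/6 mice, in 12 bulk libraries and 2 libraries of nuclei, and its title names Carmn and the contractile function of visceral smooth muscle. The knockout label reads "Carmn iKO", called KO here, and the control label reads "WT mTmG", called WT, with 3 libraries each of colon and jejunum. The mTmG allele is a fluorescent reporter of Cre recombination. The sources used here do not give the promoter that drove Cre, any inducing agent, the age and sex of the mice, the number of mice behind each library or the meaning of the tags. Nothing in the labels says that replicates came from separate mice, so p-values measure the spread between these libraries, which may be technical.

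The muscularis is built from an inner circular and an outer longitudinal layer of smooth muscle, with the myenteric plexus of neurons and glia and the interstitial cells of Cajal, the pacemaker cells of the gut, between them. Colon and jejunum arise from different stretches of the embryonic gut tube, and Hox transcription factors, whose order along the chromosome mirrors their order of use along the body axis, keep a record of that position in adult mesenchyme. Carmn is a long non-coding RNA of smooth muscle, transcribed from the locus that also holds the Mir143 and Mir145a microRNA genes.

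The 6 KO libraries held 24254905 to 44315104 counts each, with totals that overlapped between colon (28698273 to 41913833) and jejunum. Values below are normalised read counts (CPM, the counts of a gene relative to the TMM-scaled library total), and log2 fold changes are colon over jejunum, so a negative value is a gene lower in colon. Genes are called when the Benjamini-Hochberg adjusted p of edgeR's quasi-likelihood test was under 0.05 over the 20886 genes tested. Smooth muscle markers (Acta2, Myh11, Des and others, 10 genes) summed to 32337 to 43087 CPM in KO colon and 41030 to 87133 CPM in KO jejunum, so the markers of the labelled tissue were abundant in each library. The share of counts from mitochondrially encoded genes was 0.621 to 0.754% in KO colon and 1.17 to 2.07% in KO jejunum. Its part in the results was not tested.

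Of the KO libraries, 2 stood apart. The first was KO jejunum m1. The 11 Hox genes of paralogs 9 to 13 that were tested summed to 50.1 CPM there, against 7.61 CPM in KO jejunum t1 and 3.60 CPM in t4, 1.49 to 3.54 CPM in WT jejunum and 219.7 to 397.7 CPM in KO colon. The second was KO colon t4, in which 8 genes of neutrophils (S100a8, S100a9, Cxcl2, Il1b, Cxcr2, Mmp8, Retnlg and Trem1, chosen after their values were seen) summed to 1191 CPM, against at most 35.0 CPM in any other KO library. Several results that rest on KO jejunum m1 are given with and without it, and for other genes the number of libraries whose removal ended the call is given.

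Carmn itself was not lower in the libraries labelled KO. KO colon held 461, 304 and 718 CPM (m1, t4, t6) and KO jejunum 996, 817 and 909 CPM (m1, t1, t4), against 171 to 351 CPM in WT colon and 206 to 326 CPM in WT jejunum. Every KO library but colon t4 was thus above every WT library. Since the sources used here do not give the deleted part of the gene, a count over the whole gene does not check the label, and KO below means the libraries that carry that label. Within KO the colon libraries lay below the jejunum libraries without overlap, with a log2 fold change of -0.88 ± 0.33 (SE) that was not past the threshold (adjusted p = 0.209). In WT the same difference was 0.00 ± 0.33. Bvht, another long non-coding RNA of this locus, was at 4.79 to 8.01 CPM in KO colon and 5.03 to 8.08 CPM in KO jejunum (log2 fold change -0.07, adjusted p = 0.932), below the 27.5 to 67.4 CPM of the WT libraries. Mir143 (log2 fold change 1.20, adjusted p = 0.306) and Mir145a (0.26, adjusted p = 0.869) were at 3.29 CPM or less in each KO library, and longer RNAs of the locus can add to their counts.

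Between KO colon and KO jejunum 270 of 20886 genes were called (1.29%), 96 higher in colon (0.460%) and 174 lower in colon (0.833%). In the same fit 325 genes were called between WT colon and WT jejunum (1.56%), 145 higher (0.694%) and 180 lower (0.862%). The calls met in 109 genes, all in the same direction, which are 40.4% of the KO calls and 33.5% of the WT calls. Of the 96 genes higher in KO colon 32 were also called in WT (33.3%), and of the 174 lower genes 77 (44.3%). The other 161 KO calls pointed the same way in WT in 155 cases without reaching the threshold, and the other way in 6 (P2ry14, Lepr, Slc38a4, Ctxn3, Gbe1 and Atl2, named here for that property). In KO the called genes had median log2 fold changes of 1.43 (higher) and -1.80 (lower), and in WT the same genes had medians of 1.0 and -1.19. The KO values chose these genes, so the smaller WT medians are a description and not a test.

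The test of the difference itself, the regional change in KO minus that in WT, called 0 of 20886 genes (0%) by edgeR. Its smallest adjusted p was 0.353. An unadjusted p under 0.05 was reached by 869 genes, against 3707 in the KO contrast. The 869 are fewer than the share of 0.05 of all genes tested that would pass if no gene differed. By DESeq2 the test of the difference called 33 genes and by limma voom 0. Without KO jejunum m1 the KO contrast called 368 of 21639 genes (1.70%), 124 higher (0.573%) and 244 lower (1.13%), of which 222 were also called in WT (60.3% of the KO calls and 39.9% of the 557 WT calls). Scaling by total counts moved the median of all genes from 0.03 to 0.14 on the log2 scale and gave 93 higher and 90 lower genes. A fit to the 6 KO libraries alone called only Casq2, Colec10, Npnt and Dpp4, while a fit to the 6 WT libraries alone called 904 genes. The KO count of 270 and the WT count of 325 thus rest on a spread shared by both genotypes. A fit that took the tag as a block called only Casq2, Hoxc6 and Lrrc10b. In KO the block fit rests on the tags m1 and t4 alone, since KO colon t6 and KO jejunum t1 have no partner. Those tags include KO jejunum m1 and KO colon t4, the libraries that stood apart. Each other called gene named below lost its call in the block fit and in the fit to the KO libraries alone. Scaling by total counts also ended the calls of 11 genes described below, Aldh1a2, Arhgap5, Ccng1, Cd34, Gucy1b1, Hoxb7, P2ry1, Phox2a, Prkcq, Tspan2 and Upk1b (adjusted p 0.0518 for P2ry1 to 0.123 for Tspan2). The calls of Calb2 (adjusted p = 0.0692), Fxyd4 (0.101) and Kcnip2 (0.194) were lost by limma voom, and those of Aldh1a2 (0.0526), Glp2r (0.0646), Kcnip2 (0.0558) and Upk1b (0.0524) without a filter on low counts.

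**Figure D1:**
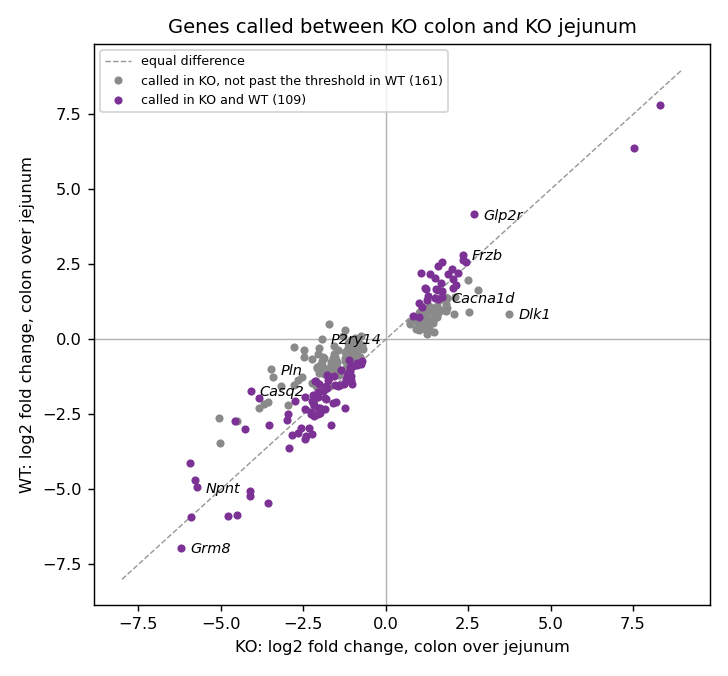
Log2 fold change of colon over jejunum in KO (x axis) and in WT (y axis) for the 270 genes called in KO. Purple points (109) are also called in WT, grey points (161) are not, and the dashed line marks equal differences. All purple points lie in the 2 quadrants of equal sign, and Casq2, Pln, P2ry14 and Dlk1 lie nearer to 0 in WT than in KO.

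Leaving out each of the 12 libraries in turn moved the number of KO calls from 270 to between 40 and 613. It was 40 without KO colon t6, 119 without KO colon m1, 613 without KO colon t4, 70 without KO jejunum t1, 61 without KO jejunum t4 and 118 to 165 without WT colon t1 or any WT jejunum library. The genes described below that stayed called without each of the libraries were Casq2, Pln, Npnt, Colec10, Hoxc5, Hoxc6, Spata18, Gja1 and P2ry14, lower in colon, and Cacna1d and Bmp3, higher in colon. In each of these 11 the 3 values of KO colon and the 3 of KO jejunum did not overlap. Over all genes tested 4087 had such values (19.6%). The 11 were chosen as calls, some under a rule that required no overlap, so their non-overlap is a description and not a test.

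**Figure D2:**
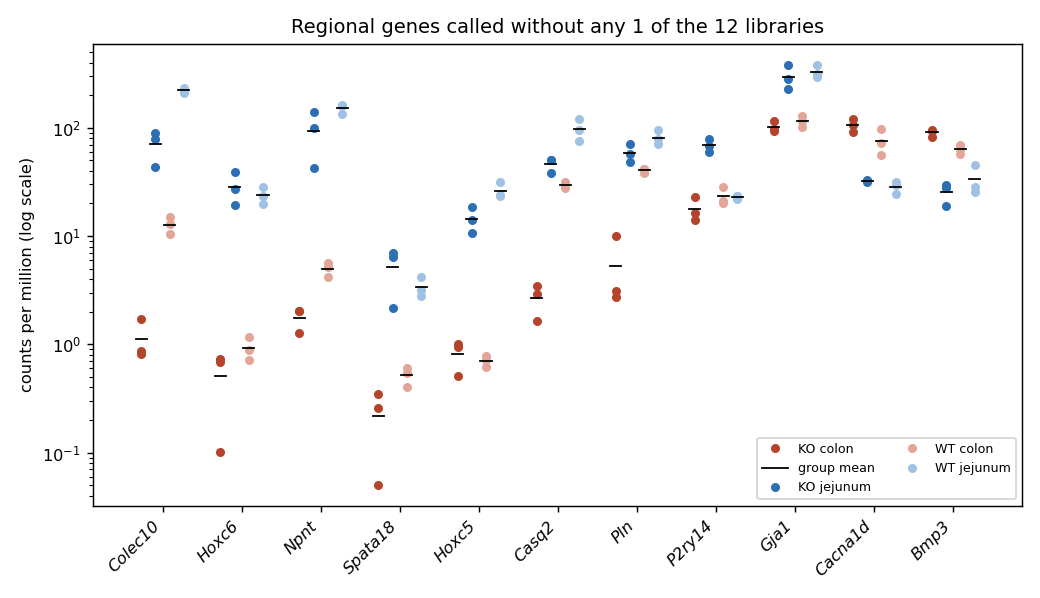
Normalised read counts (CPM, log scale) of 11 genes whose KO call held without each of the 12 libraries, 1 point per library and a bar for the group mean, for KO colon, KO jejunum, WT colon and WT jejunum. KO colon lies below KO jejunum for the first 9 genes and above it for Cacna1d and Bmp3, and the WT groups of P2ry14 overlap.

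In the calcium store, Casq2 and Pln were lower in KO colon. Casq2 encodes calsequestrin 2, which binds calcium inside the sarcoplasmic reticulum, and lies at chr3:102086415-102146514 on the plus strand (GRCm38). It was at 2.93, 1.63 and 3.47 CPM in KO colon and at 50.3, 50.1 and 37.9 CPM in KO jejunum. Every colon library was low and every jejunum library high (log2 fold change -4.10 ± 0.29, adjusted p = 0.00012). WT colon held more Casq2 than KO colon, 27.6 to 31.6 CPM, and WT jejunum 76.1 to 120 CPM, a difference that was called too (-1.72 ± 0.26, adjusted p = 0.00938). The regional difference was larger in KO than in WT by -2.38 ± 0.36 on the log2 scale, which was not called (adjusted p = 0.353), whereas DESeq2 called it (adjusted p = 7.6e-05).

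Pln encodes phospholamban, the inhibitor of the pump that refills the store. It was at 10.0, 2.74 and 3.11 CPM in KO colon and at 48.4, 71.3 and 56.7 CPM in KO jejunum, again without overlap (log2 fold change -3.47 ± 0.44, adjusted p = 0.00657). In WT colon it was at 38.4 to 41.5 CPM and in WT jejunum at 70.2 to 94.5 CPM (-1.0 ± 0.40, adjusted p = 0.293). The difference between the genotypes was -2.46 ± 0.57 (adjusted p = 0.911, and 0.0268 by DESeq2), and without KO colon m1, the KO colon library with the highest Pln, Pln was the 1 gene in which that difference was called (adjusted p = 0.00474), with a KO log2 fold change of -4.33. Exons of Pln overlap those of Cep85l and Gm47644 and the use of strand in counting is not given, so its counts are uncertain.

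Of the 18 genes tested in the calcium store list, Casq2 and Pln were called lower and none higher. The shares over all genes tested were 0.833% lower and 0.460% higher. The median of the list was -0.44, against 0.03 for all genes tested. Trdn, which encodes triadin, the partner of calsequestrin at the release channel, was at 0.261 CPM or less in KO colon and 0.964 to 2.56 CPM in KO jejunum (-3.55 ± 0.79, adjusted p = 0.0554), and it was called without KO jejunum m1 (adjusted p = 0.0387). The pump gene Atp2a2 (0.04 ± 0.34, adjusted p = 0.963) and the release channel genes Ryr2 (-0.84 ± 0.43, adjusted p = 0.34), Ryr3 (-0.03) and Itpr1 (-0.35) were not past the threshold. In WT the list had 1 gene higher and 1 lower.

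More genes called lower in KO colon hold a searched motif than are shown here, and 4 of them were chosen as examples. The stretches of DNA before the starts of Casq2, Pln, Trpc6 and Hoxb8 are given, with the motif in capitals. Each is the 250 bases before the RefSeq start (GRCm38.p6), read 5′ to 3′ on the strand of the gene, which is the plus strand for all 4. Casq2 is at chr3:102086165-102086414, Pln at chr10:53337436-53337685, Trpc6 at chr9:8543892-8544141 and Hoxb8 at chr11:96281655-96281904.
Casq2: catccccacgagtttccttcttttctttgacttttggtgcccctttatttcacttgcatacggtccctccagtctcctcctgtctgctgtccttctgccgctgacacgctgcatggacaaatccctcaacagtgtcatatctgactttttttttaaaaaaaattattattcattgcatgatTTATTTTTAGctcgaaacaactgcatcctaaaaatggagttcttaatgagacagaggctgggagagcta
Pln: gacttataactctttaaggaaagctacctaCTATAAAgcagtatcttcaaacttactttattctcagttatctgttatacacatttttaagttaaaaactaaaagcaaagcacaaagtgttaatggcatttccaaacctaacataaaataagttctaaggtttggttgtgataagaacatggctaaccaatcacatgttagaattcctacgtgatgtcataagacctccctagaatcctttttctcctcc
Trpc6: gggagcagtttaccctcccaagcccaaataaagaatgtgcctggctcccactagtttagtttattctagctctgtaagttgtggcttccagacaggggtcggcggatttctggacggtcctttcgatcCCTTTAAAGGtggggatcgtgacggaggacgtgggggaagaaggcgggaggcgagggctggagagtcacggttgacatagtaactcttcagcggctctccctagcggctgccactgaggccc
Hoxb8: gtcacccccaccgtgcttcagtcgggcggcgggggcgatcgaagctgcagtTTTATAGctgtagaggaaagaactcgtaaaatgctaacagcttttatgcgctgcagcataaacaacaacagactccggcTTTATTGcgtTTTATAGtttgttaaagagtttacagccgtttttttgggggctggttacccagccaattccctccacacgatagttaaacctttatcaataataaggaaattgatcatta

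The capitals mark a MEF2 site in Casq2, a CArG box in Trpc6 and TTTATNG, the core bound by Cdx proteins, once in Pln (on the other strand) and at 3 places in Hoxb8. The MEF2 site begins 69 bases before the start of Casq2 and the CArG box 122 bases before that of Trpc6. MEF2 factors and serum response factor, which binds the CArG box, act at many muscle genes, and Cdx factors at Hox genes. Both strands were searched, and no marked matches overlap in these 4 stretches. Among the tested genes with a promoter in the RefSeq table (13545), 8.25% held TTTATNG, 1.42% a CArG box and 2.19% a MEF2 site. Of the 174 genes lower in KO colon 115 had a promoter in the table, and 12.2% held TTTATNG, 4.35% a CArG box and 3.48% a MEF2 site. Of the 96 higher genes 69 had one, and the shares were 10.1%, 1.45% and 1.45%. These are matches of letters and not measured binding.

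Genes of the contractile apparatus leaned toward the jejunum in KO, but few passed the test. Of 20 genes 1 was called lower and none higher, against 0.833% and 0.460% of all genes tested. The log2 fold change was negative in 19 of 20, against 9977 of all 20886 genes, and the median was -0.59 against 0.03. Under scaling by total counts 19 were still negative (median -0.44, against 0.14 for all genes), while without KO jejunum m1 the median was -0.36 and without both m1 and KO colon t4 it was -0.14. In WT 12 of the 20 were positive, with a median of 0.15. The called gene was Hspb6, a small heat shock protein that relaxes smooth muscle when phosphorylated. It was at 48.8, 61.7 and 68.4 CPM in KO colon and 266, 232 and 106 CPM in KO jejunum (-1.76 ± 0.30, adjusted p = 0.0227). The call was also made in WT (-1.36, adjusted p = 0.0481). It was lost without KO colon m1, KO colon t6 or KO jejunum t1 (adjusted p 0.0639 to 0.0775), and exons of Hspb6 overlap those of Gm38670, Lin37 and Proser3.

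Mylk, the myosin light chain kinase that starts contraction, was at 2593, 1357 and 2177 CPM in KO colon and 3957, 6643 and 4768 CPM in KO jejunum. The groups did not overlap, and the log2 fold change of -1.33 ± 0.30 had an adjusted p of 0.0591, which became 0.0334 without KO jejunum m1, and its exons overlap those of E130310I04Rik and Gm21691. Myocd, the coactivator of serum response factor that drives this programme, had a log2 fold change of -0.90 ± 0.26 (adjusted p = 0.108). For Actg2, the enteric smooth muscle actin, KO jejunum m1 at 12956 CPM stood far above t1 (3506 CPM) and t4 (4564 CPM). KO colon was at 1820 to 4058 CPM, so the groups overlapped, and the log2 fold change moved from -1.23 (adjusted p = 0.2) to -0.43 (adjusted p = 0.586) without m1. Myh11 (-0.70, adjusted p = 0.27), Acta2 (-0.65, adjusted p = 0.191) and Des (-0.70, adjusted p = 0.439) were not past the threshold. In these bulk samples fewer cells of a type and less RNA per cell cannot be told apart.

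**Figure D3:**
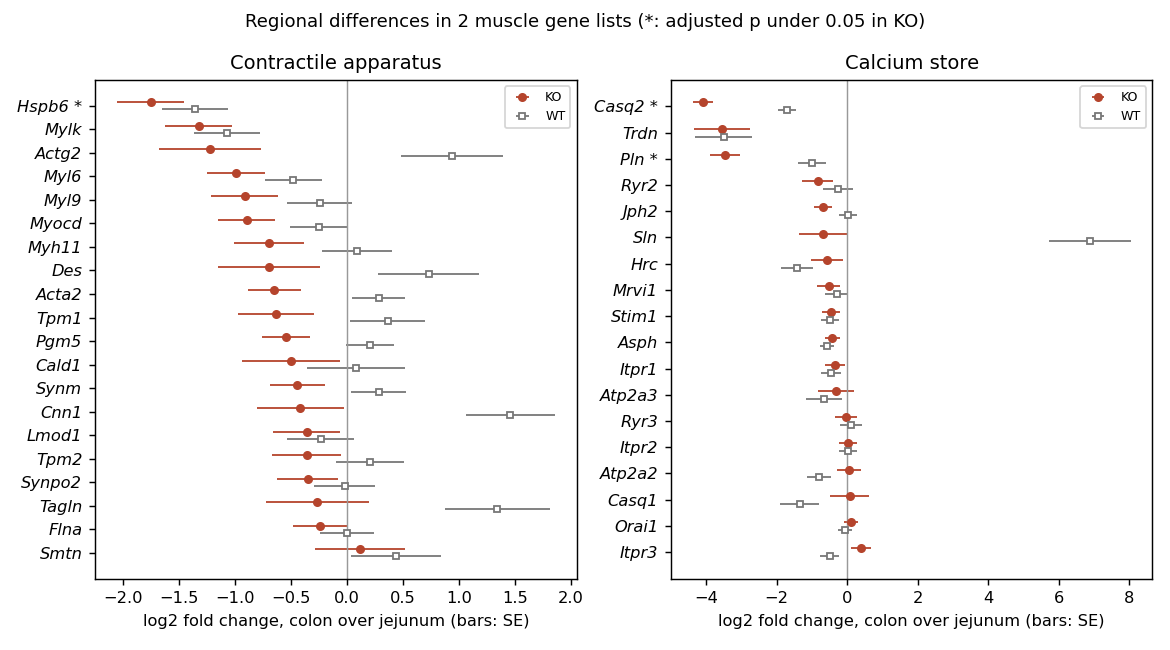
Log2 fold change of colon over jejunum with its standard error for the 20 contractile genes (left) and 18 calcium store genes (right), in KO (filled circles) and WT (open squares). In KO 19 of the 20 contractile genes lie left of 0, and Casq2, Trdn and Pln lie farthest left among the store genes.

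Among 24 genes of ion channels and gap junctions 3 were called lower in KO colon and 1 higher, against 0.833% and 0.460% of all genes tested. The median was -0.45, against 0.03 for all genes. All 4 called genes were also called in WT in the same direction. Cacna1d encodes a voltage-gated L-type calcium channel of pacemaking and neuronal cells. It was at 105, 120 and 91.4 CPM in KO colon and 32.9, 32.1 and 31.4 CPM in KO jejunum, with all colon libraries above all jejunum libraries (1.71 ± 0.20, adjusted p = 0.00408, and 1.4 in WT). Its exons overlap those of Chdh, so the count is uncertain. Cacna1c, the main L-type channel of smooth muscle, had a log2 fold change of 0.07 ± 0.26 (adjusted p = 0.91).

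Gja1, which encodes the gap junction protein connexin 43, was at 93.0, 97.3 and 116 CPM in KO colon and 377, 228 and 280 CPM in KO jejunum. Every colon library lay below every jejunum library (-1.53 ± 0.21, adjusted p = 0.00994), and the WT difference had the same size (-1.53 ± 0.21). Trpc6, a receptor-operated cation channel whose promoter is shown above, was at 1.91 to 4.25 CPM in KO colon and 9.90 to 12.1 CPM in KO jejunum. Its log2 fold change was -1.81 ± 0.31 (adjusted p = 0.0227) and -2.0 in WT, and the call was lost without KO colon t6, KO jejunum t1 or KO jejunum t4 (adjusted p 0.0616 to 0.0775). Kcnip2, a subunit that binds A-type potassium channels, was named for its size: 0.890, 0.416 and 1.49 CPM in KO colon and 3.15, 94.7 and 74.0 CPM in KO jejunum. KO jejunum m1 was thus near the colon level, and the log2 fold change of -5.91 ± 1.0 had an adjusted p of 0.0241 with m1 and 4.2e-05 without it. With m1 kept, the Kcnip2 call was lost without any 1 of the other 5 KO libraries (adjusted p 0.0531 to 0.0844), and it was not made by limma voom with all libraries (0.194).

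Of 33 genes of receptors and second messengers 2 were called lower and 1 higher, against 0.833% and 0.460% of all genes tested. P2ry14, a receptor for UDP-glucose, was at 23.1, 16.5 and 14.2 CPM in KO colon and 79.1, 67.5 and 60.1 CPM in KO jejunum. All jejunum libraries were high (-1.94 ± 0.21, adjusted p = 0.00283), while in WT colon (20.1 to 28.5 CPM) and WT jejunum (21.8 to 23.6 CPM) the values overlapped (0.02 ± 0.21, adjusted p = 0.987). The difference between the genotypes was -1.96 ± 0.30 and was not called by edgeR (adjusted p = 0.353), whereas DESeq2 called it (adjusted p = 7.6e-05). P2ry14 had the smallest unadjusted p of all genes in the test of that difference, and Casq2 the next. Gucy1b1, the beta subunit of the nitric oxide receptor guanylyl cyclase, was at 31.9 to 48.3 CPM in KO colon and 66.8 to 103 CPM in KO jejunum (-1.12 ± 0.19, adjusted p = 0.0229, and -1.09 in WT), and lost its call without KO colon t6, KO jejunum t1 or KO jejunum t4 (adjusted p 0.0634 to 0.0808) or under scaling by total counts (0.0836). P2ry1, the ADP receptor of inhibitory purinergic transmission, was at 59.5, 27.4 and 58.6 CPM in KO colon and 11.8 to 21.5 CPM in KO jejunum (1.53 ± 0.30, adjusted p = 0.036, and 1.66 in WT). The P2ry1 call was lost without each library but KO colon t4, WT colon t6 and WT colon t7 (adjusted p 0.0568 to 0.122), and exons of P2ry1 overlap those of Gm37035.

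Hox genes split by paralog number. Among 21 tested genes of paralogs 1 to 8, 4 were called lower in KO colon and none higher (median -0.64). For all genes tested the shares were 0.833% lower and 0.460% higher (median 0.03). Hoxc6, at chr15:102998257-103011881 on the plus strand, was at 0.738, 0.694 and 0.101 CPM in KO colon and 39.0, 19.2 and 27 CPM in KO jejunum, with no overlap (-5.79 ± 0.58, adjusted p = 0.00166, and -4.69 in WT). Hoxc5 was at 0.506 to 1.01 CPM in KO colon and 10.6 to 18.4 CPM in KO jejunum (-4.12 ± 0.32, adjusted p = 0.0002, and -5.21 in WT), though its exons overlap those of Hoxc10. Hoxb8, whose promoter is shown above, was at 4.6, 3.40 and 4.18 CPM in KO colon and 14.5, 13.9 and 14.9 CPM in KO jejunum, a narrow spread in each group (-1.83 ± 0.28, adjusted p = 0.0177, and -2.32 in WT).

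The Hoxb8 call was lost without KO colon t6 or KO jejunum t4 (adjusted p 0.0706 and 0.0536). Hoxb7, its neighbour, was called at the edge of the threshold (-1.43 ± 0.30, adjusted p = 0.0443, and -1.19 with an adjusted p of 0.0804 in WT) and held in 2 of the 12 fits that left out a library, those without WT colon t6 and WT colon t7, with adjusted p 0.0628 to 0.136 in the others. Irx5, a homeobox gene outside the Hox clusters, was at 0.101 to 0.304 CPM in KO colon and 1.47, 7.31 and 7.54 CPM in KO jejunum, m1 being the lowest (-4.78 ± 0.68, adjusted p = 0.0114, and -5.90 in WT). Leaving out KO colon t6 ended its call (adjusted p = 0.062).

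The Hox genes of paralogs 9 to 13 were high in KO colon, and in 10 of 11 the groups did not overlap. Over all genes tested 19.6% had no overlap. Yet none of the 11 was called by edgeR with all libraries, where 0.460% of all genes were called higher. With the same libraries limma voom called 8 of them higher and DESeq2 6. Over all genes limma voom called 114 of 20886 higher and DESeq2 547 of 31526. KO jejunum m1 held 8.3 to 47.3% of the KO colon mean of each gene (median 15%), and it was the highest jejunum library for 9 of them (all but Hoxb13 and Hoxd9). Hoxd13, the most abundant of them, was at 123, 74.1 and 128 CPM in KO colon and at 14.5, 0.220 and 0.0679 CPM in KO jejunum m1, t1 and t4 (adjusted p = 0.127). For Hoxd11 KO jejunum m1 had 60 counts and t1 and t4 had 0, which allows up to 0.0824 and 0.0679 CPM, against 734 to 1497 counts in KO colon. Hoxa13 was at 20.5 to 68.7 CPM in KO colon and 7.46, 0.852 and 0.181 CPM in KO jejunum. Without m1 8 of the 11 were called higher in colon (all but Hoxb9, Hoxb13 and Hoxd9). In WT 8 of the 11 were called higher with all libraries. The shares of all genes called higher were 0.573% in KO without m1 and 0.694% in WT. These Hox genes were singled out after their values were seen.

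Pitx1, a hindgut and hindlimb homeobox gene, had the same pattern: 77.7 to 119 CPM in KO colon and 18.7, 0.714 and 0.272 CPM in KO jejunum. Its adjusted p was 0.118 with m1 and 5.2e-05 without it, and in WT, where jejunum held 0.320 to 0.480 CPM, it was called (adjusted p = 0.023). Exons of Pitx1 overlap those of Gm28760 and Gm47071. Hoxc8 went the other way in that library, with 70.4 CPM in KO jejunum m1, 1.57 and 2.29 CPM in t1 and t4, and 0.555 CPM or less in KO colon. What sets KO jejunum m1 apart was not tested.

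**Figure D4:**
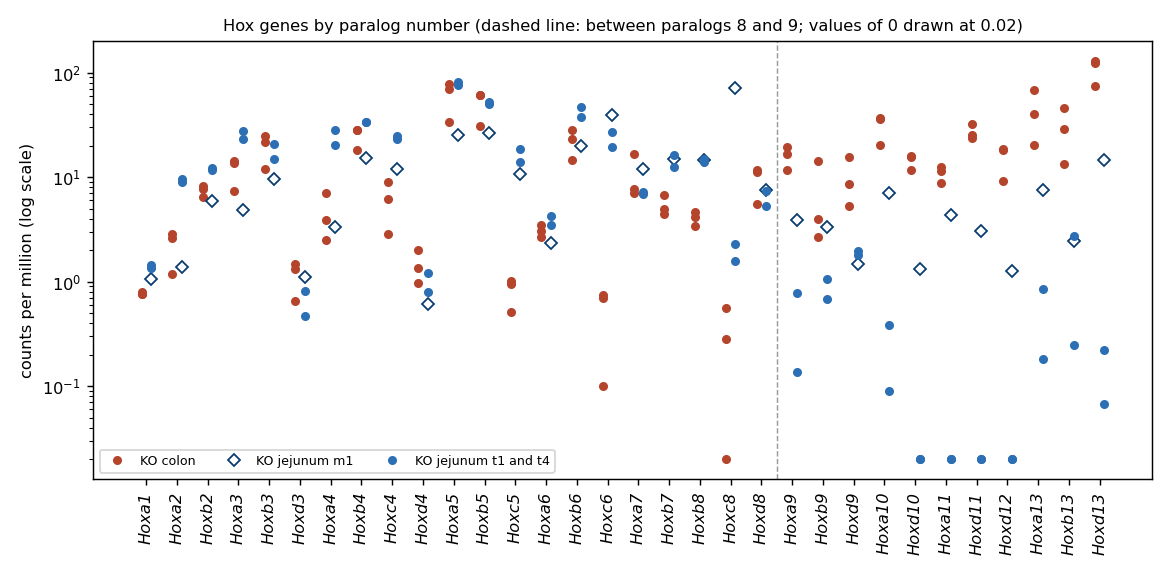
Normalised read counts (CPM, log scale) of the 32 Hox genes tested, ordered by paralog number, in the KO colon libraries (red), KO jejunum t1 and t4 (blue) and KO jejunum m1 (open diamonds), with values of 0 drawn at 0.02. Right of the dashed line, paralogs 9 to 13, KO jejunum m1 lies between KO colon and the other jejunum libraries for most genes, and Hoxc8 is high in m1.

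Over all genes tested 0.833% were called lower in KO colon and 0.460% higher. Of 32 other regional transcription factors 1 was called, Gata5, lower in KO colon. It was at 4.49, 5.34 and 2.79 CPM in KO colon and 11.8, 16.4 and 23.2 CPM in KO jejunum (-2.03 ± 0.34, adjusted p = 0.0216), and its WT difference was not past the threshold (-0.92 ± 0.33, adjusted p = 0.219). The difference between genotypes was -1.10 ± 0.46 (adjusted p = 0.941). The call was lost without KO colon m1, KO colon t6, KO jejunum t1 or KO jejunum t4 (adjusted p 0.0523 to 0.0775), and exons of Gata5 overlap those of Gata5os.

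In the matrix list 1 of 28 genes was called lower and 1 higher, against 0.833% and 0.460% of all genes tested. The median of the list, 0.11, moved to 1.08 without KO jejunum m1 and to -0.49 without KO colon t4. Npnt encodes nephronectin, a basement membrane ligand of integrin alpha 8, and lies at chr3:132881745-132950291 on the minus strand. It was at 2.02, 2.01 and 1.27 CPM in KO colon and 42.3, 139 and 100 CPM in KO jejunum. All colon libraries were near 0 next to the jejunum (-5.73 ± 0.42, adjusted p = 0.000133), and the WT difference was of similar size (-4.93 ± 0.40). Fbln1, a matrix glycoprotein, was at 375, 242 and 251 CPM in KO colon and 117 to 140 CPM in KO jejunum (1.18 ± 0.24, adjusted p = 0.0407, and 1.70 in WT). It was called in 3 of the 12 fits that left out a library, those without KO colon t4, WT colon t6 or WT colon t7, and its adjusted p was 0.0506 to 0.138 in the others. Colec10, a secreted collectin at chr15:54410774-54466358 on the plus strand, had the smallest adjusted p of the named genes, with 1.72, 0.867 and 0.810 CPM in KO colon and 43.3, 90.3 and 79.1 CPM in KO jejunum (-5.95 ± 0.38, adjusted p = 7.9e-05, and -4.12 in WT).

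Signalling genes were called singly. Bmp3, an antagonist within the BMP family, was at 82.9, 95.7 and 92.7 CPM in KO colon and 19.0, 29.9 and 27.9 CPM in KO jejunum. The colon libraries were all high (1.82 ± 0.24, adjusted p = 0.00696), while in WT the difference was 0.93 ± 0.23 (adjusted p = 0.0794). Smoc2, a matricellular protein of the same 22-gene BMP and TGF-beta list, was at 151 to 175 CPM in KO colon and 338 to 468 CPM in KO jejunum. Its log2 fold change was -1.25 ± 0.18 (adjusted p = 0.0119) in KO and -2.28 ± 0.19 in WT, and leaving out KO colon t6 ended the KO call (adjusted p = 0.0639).

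In the Wnt list 1 of 22 genes was called higher and 1 lower, against 0.460% and 0.833% of all genes tested. Frzb, a secreted Wnt antagonist, was at 33.4, 21.8 and 32.4 CPM in KO colon and 8.58, 5.71 and 3.19 CPM in KO jejunum (2.33 ± 0.35, adjusted p = 0.0151, and 2.82 in WT). The groups did not overlap, and the call was lost without KO colon t6 or KO jejunum t1 (adjusted p 0.0587 and 0.0532). Dkk2, another Wnt antagonist, went the other way, with 4.47 to 8.67 CPM in KO colon and 14 to 20.6 CPM in KO jejunum (-1.52 ± 0.30, adjusted p = 0.0379, and -2.08 in WT). Its call was lost without each of 8 libraries, the KO ones other than colon t4 and the 3 of WT jejunum (adjusted p 0.0592 to 0.13).

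Retinoid genes were called in both directions. Rarb, a retinoic acid receptor, was at 19.2 to 21.8 CPM in KO colon and 9.78 to 10.7 CPM in KO jejunum (0.99 ± 0.16, adjusted p = 0.0177, and 0.76 in WT). Aldh1a2, which makes retinoic acid and is also high in mesothelium, was at 9.22 to 27 CPM in KO colon and 70.7 to 107 CPM in KO jejunum (-2.21 ± 0.45, adjusted p = 0.0437, and -2.11 in WT). The Rarb call was lost without KO colon t6, KO jejunum t1 or KO jejunum t4 (adjusted p 0.0526 to 0.0664), and exons of Rarb overlap those of Gm48162 and Top2b. The Aldh1a2 call was lost without each library but KO colon t4, WT colon t1 and WT colon t7 (adjusted p 0.0525 to 0.118). These were the 2 calls among 23 genes of the FGF, hedgehog and retinoid list, against 0.460% higher and 0.833% lower over all genes tested.

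Genes of enteric neurons that passed the test were higher in KO colon. Of 12 neuron markers 2 were called higher and none lower, and all 12 had positive log2 fold changes (median 0.75). Of 26 transmitter genes 5 were called higher and none lower, with 16 positive and 10 negative log2 fold changes (median 0.91). Over all 20886 genes tested 96 were called higher (0.460%), 10908 had positive log2 fold changes, and the median was 0.03. Ddc, an enzyme of monoamine synthesis named here after its values were seen, was called lower by DESeq2 (adjusted p = 0.017) and without WT colon t7 (0.0309). Without KO jejunum m1 the counts called higher were 1 of 12 and 7 of 26, and without KO colon t4 they were 5 of 12 and 6 of 26. Calls over all genes moved too, to 124 of 21639 higher without KO jejunum m1 and 384 of 21616 without KO colon t4. The summed level of the 12 markers was 731 to 1235 CPM in KO colon and 556 to 641 CPM in KO jejunum, and that of 10 markers of enteric glia was 259 to 353 CPM and 121 to 203 CPM. The part of neuron content in the transmitter genes was not tested.

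Sst, the inhibitory peptide somatostatin, was at 83.7, 70.3 and 116 CPM in KO colon and 29.3, 13.1 and 8.26 CPM in KO jejunum, m1 being the highest of the jejunum libraries (2.42 ± 0.43, adjusted p = 0.0259, and 2.59 in WT), and without m1 the log2 fold change was 3.07. Dbh, the enzyme that makes noradrenaline, was at 56.1, 23.1 and 59.1 CPM in KO colon and 10.0, 11.1 and 6.32 CPM in KO jejunum (2.33 ± 0.37, adjusted p = 0.0199, and 2.66 in WT). Nos1, the neuronal nitric oxide synthase of inhibitory motor neurons, was at 595, 284 and 340 CPM in KO colon and 119, 148 and 132 CPM in KO jejunum (1.61 ± 0.30, adjusted p = 0.0316). For each of these genes all colon libraries lay above all jejunum libraries. In WT the Nos1 difference was 1.32 ± 0.30 (adjusted p = 0.0576), and its exons overlap those of Gm26995.

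Calb2, the calcium-binding protein calretinin, was at 136, 43.4 and 103 CPM in KO colon and 25.4 to 32.3 CPM in KO jejunum (1.70 ± 0.35, adjusted p = 0.0437, and 1.62 in WT). Penk, the enkephalin precursor, was outside the naming rule and is given because it completes the 5 calls, with 233, 374 and 283 CPM in KO colon and 142, 54.4 and 45 CPM in KO jejunum (1.88 ± 0.40, adjusted p = 0.0489, and 0.0028 without KO jejunum m1). Nefl, a neurofilament subunit, had a log2 fold change of 1.67 ± 0.32 (adjusted p = 0.0316, and 1.88 in WT), and Phox2a, a transcription factor of autonomic neurons, 1.22 ± 0.25 (adjusted p = 0.0407, and 0.45 with an adjusted p of 0.483 in WT). Exons of Nefl overlap those of Nefm, and exons of Phox2a those of Inppl1. Leaving out 1 library ended many of these calls. Without KO colon t6 or KO jejunum t4 no transmitter gene was called higher, so Penk lost its call there too. Over all genes those fits called 9 and 5 higher. Without KO colon m1, KO jejunum t1 or WT jejunum t6 the 1 transmitter gene called higher was Dbh. The Dbh call was lost without KO colon t6 or KO jejunum t4 (adjusted p 0.0679 to 0.0765), and the Sst call without KO colon m1, KO colon t6, KO jejunum t1, KO jejunum t4 or WT jejunum t6 (0.0526 to 0.0882). Nos1, Calb2, Nefl and Phox2a each lost their call without 8 or 9 of the 12 libraries, among them KO colon m1, KO colon t6, KO jejunum t1, KO jejunum t4 and each WT jejunum library, with the highest adjusted p at 0.106, 0.143, 0.11 and 0.138. Vip (0.75 ± 0.73) and Chat (1.44 ± 0.40), markers of inhibitory and excitatory motor neurons, were not past the threshold (adjusted p = 0.625 and 0.1), and Vip was called without KO jejunum m1 (adjusted p = 0.0133).

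**Figure D5:**
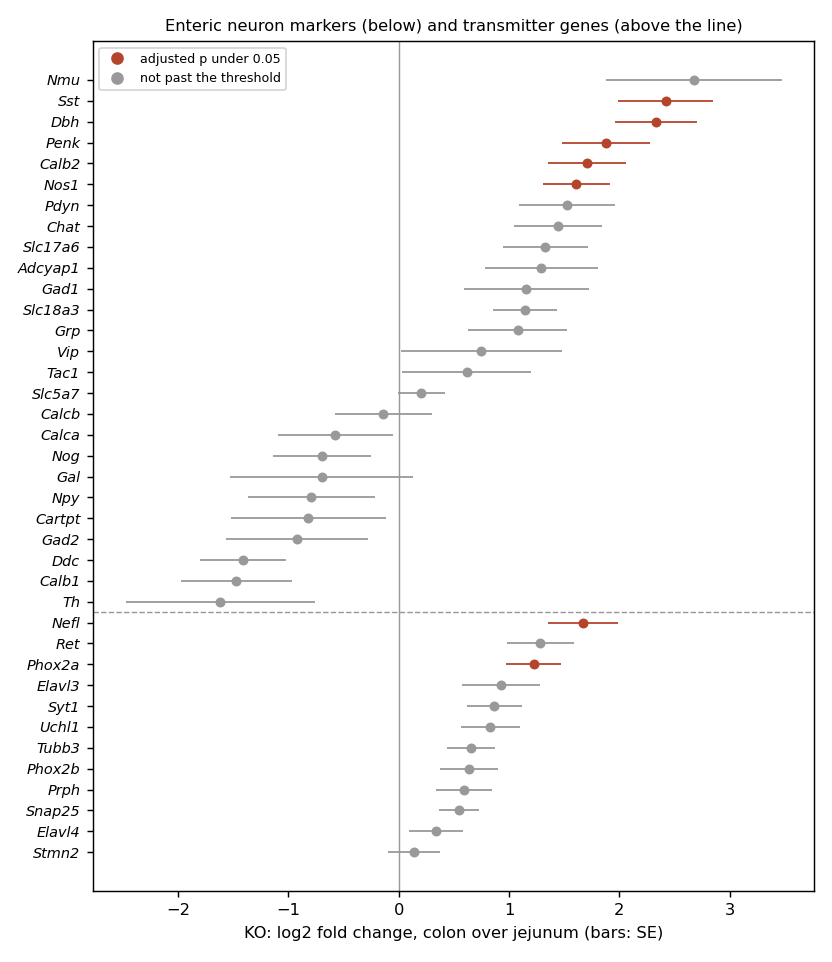
Log2 fold change of KO colon over KO jejunum with its standard error for 12 enteric neuron markers (below the dashed line) and 26 transmitter genes (above it), with genes past the threshold in red. All 12 markers lie right of 0, and the 5 called transmitter genes lie between 1.61 and 2.42.

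Markers of other cells in the muscle coat gave few calls. Among all genes tested 0.833% were called lower and 0.460% higher. Of 8 markers of interstitial cells of Cajal 2 were called lower in KO colon, Adgrd1 and Prkcq, while Kit (-0.24 ± 0.35, adjusted p = 0.759) and Ano1 (-1.12 ± 0.36, adjusted p = 0.151) were not past the threshold. Adgrd1, an adhesion receptor, was at 64.9 to 85.1 CPM in KO colon and 190 to 300 CPM in KO jejunum (-1.73 ± 0.25, adjusted p = 0.0124, and -1.29 in WT), and was not called when KO colon t6 was left out (adjusted p = 0.07). Prkcq, a protein kinase C, was at 13.9, 3.68 and 13.9 CPM in KO colon and 34.1, 38.6 and 59.6 CPM in KO jejunum (-2.07 ± 0.43, adjusted p = 0.0443, and -2.49 in WT). The Prkcq call was lost without each library but KO colon t4, KO jejunum m1 and WT colon t7 (adjusted p 0.0504 to 0.123).

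Rgs5, a regulator of G protein signalling used as a pericyte marker, was at 294, 64.5 and 253 CPM in KO colon and 963, 2101 and 1717 CPM in KO jejunum, so that colon t4 was lowest and jejunum m1 lowest within its group (-2.97 ± 0.49, adjusted p = 0.0218, and -2.48 in WT). It was the 1 call of 7 pericyte markers and was lost without KO colon t6, KO jejunum t1 or KO jejunum t4 (adjusted p 0.0562 to 0.0775). Upk1b was the 1 call of 5 mesothelial markers, whose summed level was 128 to 254 CPM in KO colon and 421 to 1112 CPM in KO jejunum. It was at 8.08 to 14 CPM in KO colon and 32.6 to 67.6 CPM in KO jejunum (-2.18 ± 0.45, adjusted p = 0.0437, and -2.01 with an adjusted p of 0.0514 in WT), and held without 4 of the 12 libraries, with adjusted p up to 0.156 in the other fits, the highest without KO colon t6. Cd34, a marker of interstitial fibroblasts, was the 1 call of 10 fibroblast markers (-1.22 ± 0.21, adjusted p = 0.0235, and -0.42 with an adjusted p of 0.445 in WT). It was lost without KO colon m1, KO colon t6, KO jejunum t1 or KO jejunum t4 (adjusted p 0.051 to 0.0791), and its exons overlap those of Gm16897.

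Few epithelial markers passed the test, which called 0.833% of all genes tested lower and 0.460% higher. Of 14 markers of small intestinal epithelium none was called, but all had negative log2 fold changes (median -4.73), with a summed level of 58.9 to 203 CPM in KO colon and 1062 to 3084 CPM in KO jejunum. In WT colon that sum was 2939, 2022 and 79.2 CPM (t1, t6, t7), so that t1 and t6 lay within the KO jejunum range and t7 did not. Of 10 colon epithelial markers 1 was called higher, Fxyd4, a subunit of the sodium pump, at 2.28, 11.2 and 3.80 CPM in KO colon and 0.508 to 0.962 CPM in KO jejunum (2.81 ± 0.56, adjusted p = 0.0398). Without KO colon t4, its highest library, the log2 fold change was 1.89, and in WT it was 1.66 (adjusted p = 0.199). The Fxyd4 call held in 3 of the 12 fits that left out a library, with adjusted p up to 0.118, the highest without KO jejunum t4. Of 9 skeletal muscle genes 7 were tested and Ckm, muscle creatine kinase, was called lower (-1.87 ± 0.29, adjusted p = 0.016, and -0.996 with an adjusted p of 0.121 in WT), a call that ended when KO colon t6 was left out (adjusted p = 0.0743), and exons of Ckm overlap those of A930016O22Rik. Of 10 glucocorticoid response genes Errfi1 was called higher (1.24 ± 0.21, adjusted p = 0.0219), while in WT its groups overlapped (0.50, adjusted p = 0.31). The Errfi1 call was lost without KO colon t6, KO jejunum t1 or KO jejunum t4 (adjusted p 0.0682 to 0.0878). No gene was called in the lists for the Carmn locus, endothelium, lymphatics, enteric glia, macrophages, MHC class II, T cells, B cells, epithelium in general, small intestinal epithelium, adipocytes, pancreas, immediate early genes or smooth muscle markers.

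The genes with the largest differences in the naming rule added a few outside the lists. Grm8, a glutamate receptor, was at 0.347, 0.763 and 0 CPM in KO colon, the last with an upper limit of 0.076 CPM, and 13.3, 36.0 and 30.2 CPM in KO jejunum (adjusted p = 0.0151, and 0.0501 without KO colon m1). Its exons overlap those of Mir592. Spata18, which acts in mitochondrial quality control, was at 0.0506 to 0.347 CPM in KO colon and 2.18 to 6.92 CPM in KO jejunum (-4.57 ± 0.64, adjusted p = 0.011, and -2.71 in WT). Among the higher genes Dlk1, an imprinted ligand related to Notch ligands, was at 7.12, 6.38 and 15.5 CPM in KO colon and 1.12, 0.797 and 0.294 CPM in KO jejunum. All colon libraries were high (3.74 ± 0.66, adjusted p = 0.0236), whereas the WT groups overlapped (0.84 ± 0.59, adjusted p = 0.624). The difference between genotypes for Dlk1 was 2.90 ± 0.86 (adjusted p = 0.941), and the call was lost without KO colon t6, KO jejunum t1 or KO jejunum t4 (adjusted p 0.076 to 0.0841). Glp2r, the receptor of the gut hormone GLP-2, was at 139, 42.2 and 87.9 CPM in KO colon and 26.3, 9.64 and 6.07 CPM in KO jejunum (2.69 ± 0.54, adjusted p = 0.0437, and 4.17 in WT). Without KO jejunum m1 its log2 fold change was 3.5 (adjusted p = 0.00722), and the call was lost without 9 of the 12 libraries (highest adjusted p 0.121, without KO jejunum t1). Exons of Glp2r overlap those of Gas7.

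Besides P2ry14, the KO calls with the smallest differences in WT were Ccng1, Arhgap5 and Tspan2, all lower in KO colon. Ccng1, a cyclin induced by p53, was at 118 to 135 CPM in KO colon and 209 to 322 CPM in KO jejunum (-0.99 ± 0.20, adjusted p = 0.0437, and -0.01 ± 0.20 in WT). Arhgap5, a GTPase-activating protein, was at 44.3 to 53.3 CPM and 84.8 to 130 CPM (-1.05 ± 0.22, adjusted p = 0.0437, and -0.01 ± 0.21 in WT). The tetraspanin gene Tspan2 was at 50.1 to 78.7 CPM and 105 to 129 CPM (-0.93 ± 0.19, adjusted p = 0.0408, and -0.04 ± 0.19 in WT), and its exons overlap those of Tspan2os. Their calls held without 3, 3 and 4 of the 12 libraries, with adjusted p up to 0.115, 0.137 and 0.122 in the other fits, in each case highest without KO colon t6, and under total counts it was 0.0527, 0.0652 and 0.123. Without KO jejunum m1, their highest jejunum library, Ccng1 (adjusted p = 0.0579) and Arhgap5 (0.0683) were not called. The differences between genotypes for Ccng1, Arhgap5 and Tspan2 were -0.98, -1.04 and -0.89, each with an adjusted p of 0.941.

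The test of the genotype difference also ranked 2 genes that were called in WT and not in KO. P2rx5, an ATP-gated channel, was at 3.97, 1.87 and 2.35 CPM in KO colon and 4.10 to 4.31 CPM in KO jejunum (-0.62 ± 0.41, adjusted p = 0.451), whereas WT colon (3.98 to 10.9 CPM) lay above WT jejunum (0.693 to 1.25 CPM, log2 fold change 2.79, adjusted p = 0.0124). Vsnl1, a neuronal calcium sensor, was at 1.18 to 2.06 CPM in KO colon and 1.12 to 1.76 CPM in KO jejunum, which overlapped (0.20 ± 0.30, adjusted p = 0.778). In WT it was at 2.13 to 2.34 CPM in colon and 9.0 to 13.5 CPM in jejunum (-2.29, adjusted p = 0.00635). The differences between genotypes were -3.41 ± 0.60 for P2rx5 and 2.48 ± 0.43 for Vsnl1, with an adjusted p of 0.582 for both.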

How the data were processed

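Bulk RNA-seq of the muscularis was analysed in 12 libraries, and the 2 libraries of nuclei are not used here. The table the authors deposited holds raw read counts for each Ensembl identifier. The submitters' processing notes name STAR 2.0.4b, Subread, featureCounts 1.4.5, edgeR, Cell Ranger, GRCm38 and mm10, with no role or order. The sources used here do not say whether counting used strand. Of 40757 entries, 276 repeated an identifier and were dropped, and 99.4% of the remaining 40481 identifiers were in the GENCODE annotation (GRCm38), which gave coordinates and, for genes under the naming rule, overlapping exons.

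Differences were tested by edgeR's quasi-likelihood test (version 4.0.16, R 4.3.3) on 20886 genes that passed filterByExpr for the 4 groups. A single model with TMM scaling, a mean per group and robust dispersions took in all 12 libraries, which thereby shared an estimate of spread. The p-values and ± of KO differences thus rest in part on the WT libraries and can understate the spread among KO libraries. Contrasts tested were KO colon minus KO jejunum, WT colon minus WT jejunum, and their difference. Tests were two-sided, with Benjamini-Hochberg adjustment over all genes tested and a threshold of 0.05. CPM used TMM-scaled library sizes, and ± is the standard error. No replicate pair was alike within sampling noise (chi-square per gene 98.7 to 271.1 in KO and 57.1 to 187.1 in WT). Upper limits for values of 0 rest on 3 counts and cover counting error only.

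The naming rule took the 8 highest and 8 lowest fold changes among calls without overlap whose mean log2 CPM reached 1, 6 each way that were also called in WT with both fold changes above 1 in size, up to 4 members of each of 33 lists with the smallest p and each Hox gene past the threshold, the 4 smallest p in the genotype difference, the 4 KO calls with WT fold changes nearest 0, and the Carmn locus. The text uses a part of these 146 genes. A gene that the rule names and the counts include is not reported here. Members and lists were chosen with earlier results of these data known. The alternatives were RLE size factors, total counts, no filter, a filter at 1 CPM, DESeq2 1.42.0, limma 3.58.1 voom, the 6 libraries of 1 genotype, a replicate block, and leaving out each library. Leaving out KO jejunum m1 and KO colon t4 together was chosen after seeing the data. Promoter sequences are from RefSeq.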

Additional observations from a re-analysis of the deposited data

How the results depend on the processing

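All 270 KO calls that could be tested kept their sign under each of the 21 alternatives, but the number past the threshold moved. RLE size factors (278), total counts (183), no filter (271), the 1 CPM filter (373) and limma voom (304) gave KO counts within 1.5 times of 270. DESeq2 called 1330 genes in KO, 1077 in WT, 468 in both and 33 in the genotype difference. The fit to 1 genotype alone called 4 in KO, 904 in WT and 3 in both. Leaving out 1 library gave 40 to 613 KO calls, 79 to 557 WT calls, 30 to 222 in both, 0 to 1 in the genotype difference and 10 to 57 list members (38 with all libraries). Without KO jejunum m1 and KO colon t4, an alternative chosen after seeing the data, 694 genes were called in KO, 1056 in WT, 405 in both and 73 list members.

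The same tags recur in colon and jejunum, but the labels do not say what they mean. Deviations of same-tag libraries from their group means correlated at -0.163 for m1 and -0.095 for t4 in KO. In WT they correlated at 0.1 for t1, -0.008 for t6 and 0.061 for t7. Pairs with different tags correlated at -0.39 to 0.348. Each group has only 3 libraries, and only m1 and t4 occur in both KO tissues, so these values cannot decide whether tags pair. Whether a tag marks a shared mouse is unknown. A replicate block for the tag called 3 genes in KO, 29 in WT and 2 in both. In KO that fit rests on the tags m1 and t4 alone, since KO colon t6 and KO jejunum t1 have no partner of the same tag. With 3 libraries a group, low counts such as those of Trdn limit what can be told apart.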
